A study of Caenorhabditis elegans with 4 samples.

Results

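Chromosome III carried 330 of the 2162 regions at which HPL-2::GFP was mapped in starved larvae of the worm Caenorhabditis elegans. They are all peaks that the combined peak list of the series places on chromosome III, and nothing about their strength or width entered the choice. HPL-2 is one of the worm's heterochromatin protein 1 family members, which bind nucleosomes carrying methylated histone H3 and take part in keeping chromatin compact and genes silent. In C. elegans the outer parts of the autosomes, called arms, are rich in repeats, whereas the gene-dense centres hold most broadly expressed genes. LIN-35 is the worm's retinoblastoma-type pocket protein. It belongs to a repressor complex, and its loss is known to switch on genes of the germ line in somatic tissue such as the intestine of larvae.

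Chromatin immunoprecipitation followed by sequencing (ChIP-seq) had been done on 2 ChIP samples, each labelled with its own Input sample, and peak lists of the 2 ChIP samples and of the series as a whole were analysed. All 4 samples came from hermaphrodites of strain YL474 at the starved L1 stage (the first larval stage), grown at 20 degrees Celsius. The strain is lin-35(n745) on chromosome I, unc-119(ed3) on chromosome III, and vrIs64, a transgene of hpl-2 with a GFP and FLAG tag and the unc-119(+) rescue gene. The ges-1 promoter drives the fusion protein in the intestine, so the map reports on intestinal cells that make the tagged protein, in whole larvae. The lin-35 mutation and the transgene were present in every sample, no strain with intact lin-35 or without the tag is compared here, and non-specific recovery by the GFP antibody was not measured. Both hpl-2 and unc-119, which the transgene carries, are themselves genes of chromosome III. The gene table used here is on assembly WBcel235 while the peaks are on WormBase WS220, so peaks are named by position and none is assigned to a gene, those of the transgene included.

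The deposited lists give the first and last base of each peak and a q-value, the caller's estimate of the false discovery rate, given here as -log10 q (larger is stronger). Read depth is unknown. ChIP replicate 1 had 194 peaks on III among 1288, and replicate 2 had 23 among 177. The q-values come from different data in each list, so strength was compared only within a list, by rank. A combined peak was counted as found in a replicate when it shared 1 bp or more with a peak there. The largest q-value in any list was 0.00999. Not found thus means that no peak up to about that q-value was listed, and not that binding was absent. Intervals are exact (Clopper-Pearson) 95% intervals, which cover counting error alone and take each peak as independent. Peaks of the same samples are not replicates of one another, and no p-value was computed over them.

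The 330 peaks covered 194.7 kb, or 1.42% of the 13.7 Mb spanned on the chromosome, at 24.0 peaks per Mb. Chromosome III had 15.3% of all combined peaks (95% interval 13.8 to 16.8%) on 13.7% of the length spanned by peaks. In replicate 1 its share was 15.1% (13.2 to 17.1%) and in replicate 2 it was 13.0% (8.42 to 18.9%). Chromosomes II and IV were denser, with 25.6 and 27.4 peaks per Mb, and I, V and X were sparser, with 15.1, 18.9 and 19.5. Chromosome III thus lay between these groups in density, and its share of the length lay just under the interval of the combined list and within those of both replicates.

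Of the 330 peaks, 188 (57.0%, 51.4 to 62.4%) were found in replicate 1, against 56.9% of all combined peaks. In replicate 2, 22 (6.67%, 4.22 to 9.92%) were found, against 7.35% of all. Every one of these 22 was also found in replicate 1, so 22 peaks were in both replicates, against 6.94% of all combined peaks. A further 166 were in replicate 1 only, and 142 (43.0%, 37.6 to 48.6%) were in neither, against 42.6% of all. All of these shares lie near the background of the whole list. In the reverse direction, all 23 replicate 2 peaks of III overlapped a replicate 1 peak (85.2 to 100%), where 92.1% of the whole replicate 2 list did. The 14 replicate 2 peaks with no replicate 1 partner were all on other chromosomes, but 140 of 154 there (90.9%, 85.2 to 94.9%) had one, and the intervals overlap. Of the 194 replicate 1 peaks of III, 22 (11.3%, 7.24 to 16.7%) overlapped a replicate 2 peak, against 11.6% of that whole list.

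**Figure D1:**
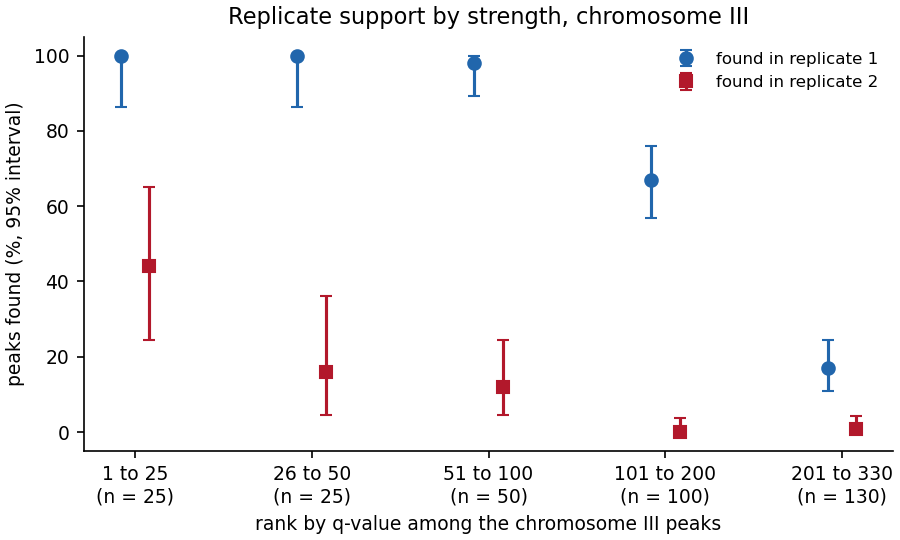
Share of the chromosome III peaks found in each ChIP replicate (%, y axis) by rank of their q-value among the 330 peaks (x axis). Points are shares and bars exact 95% intervals; support in replicate 1 was 100% for ranks 1 to 25 and 16.9% for ranks 201 to 330, and support in replicate 2 was 44% and 0.769%.

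Support fell with strength, as the plot of support by rank shows. All 25 of the strongest III peaks and all 25 of the next were found in replicate 1, as were 49 of the 50 III peaks ranked 51 to 100. From rank 101 to rank 200 it was 67 of 100, and beyond rank 200 it was 22 of 130. For replicate 2 the counts were 11, 4, 6, 0 and 1 in the same classes. The combined list was made from the same samples, so this order describes the lists and is not a separate check of them. The 22 peaks in both replicates were 733 bp wide in median and had a median strength of 10.1 (-log10 q). The corresponding values were 472 bp and 4.55 for peaks in replicate 1 only, and 314.5 bp and 2.42 for peaks in neither.

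The strongest region of the chromosome was a broad one in its centre, from 5501266 to 5506684, which spanned 5419 bp with a q-value of 1.25e-60. It was the only III peak among the 25 strongest of the genome and stood at rank 18 there. Replicate 1 held it as 2 peaks of 4356 and 838 bp, the wider with a q-value of 3.32e-31 at rank 29 of its list, and replicate 2 as 2 peaks of 982 and 793 bp with q-values of 0.000314 and 0.000361 at ranks 67 and 70. The region was therefore present in all 3 lists, in 2 pieces in each replicate, and as a shorter stretch in replicate 2. The pieces did not match. Both replicate 2 pieces overlapped the wider replicate 1 peak, and the replicate 1 peak of 838 bp overlapped no replicate 2 peak. On its left the nearest combined peak was 232.4 kb away, and on its right 39.7 kb.

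The next sites in order of strength had far smaller -log10 q values, close to one another. The peak from 1214583 to 1215991 in the left arm (1409 bp) had a -log10 q of 29.1. The peak from 8866314 to 8868552 in the centre (2239 bp) had 28.7, and the peak from 4193167 to 4196056 in the left arm (2890 bp), had 27.9. The fifth, from 5916623 to 5917958 in the centre (1336 bp), had 27.3. Per kb of width, -log10 q was 11.1 at the strongest region and 20.7, 12.8, 9.65 and 20.5 at these sites, in order. The order by q-value is thus not the order per kb of width. In replicate 1 these 4 stood at ranks 58, 51, 59 and 56, again close together. In replicate 2 they stood at ranks 28, 130, 34 and 30, which set the peak at 8866314 apart from the other three. Replicate 2 covered 634 bp of peak there, against 2161 bp in replicate 1.

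Ranks 6 to 15 mixed broad and narrow sites. The sixth, from 12312973 to 12315280 in the right arm (2308 bp, -log10 q 25.3), was at rank 55 in replicate 1 and had no peak in replicate 2. It was the only one of the 10 strongest without one. The seventh, from 10758941 to 10759464 (right arm), was only 524 bp wide at a -log10 q of 23.6. It ranked 47 in replicate 1, above all other III sites but the strongest, and 123 in replicate 2. Similarly narrow sites followed: 3456216 to 3456605 in the left arm (390 bp, -log10 q 21.1) and 12250139 to 12250723 in the right arm (585 bp, 18.6), which ranked 75 and 78 in replicate 1 and 55 and 109 in replicate 2. The tenth, from 5267375 to 5268867 (1493 bp, 17.5), faced the strongest region across the empty 232.4 kb and ranked 110 and 85 in the replicates.

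None of the peaks ranked 11 to 15 was found in replicate 2. They were 5836775 to 5841198 in the centre (4424 bp, -log10 q 16.5), 1618956 to 1619298 in the left arm (343 bp, 16.2), 12598092 to 12599571 in the right arm (1480 bp, 15.5), 5939222 to 5941517 in the centre (2296 bp, 15.2) and 3867313 to 3867755 in the left arm (443 bp, 15.2). Their best ranks in replicate 1 were 113, 85, 87, 181 and 95. Replicate 2 thus held 9 of the 10 strongest III sites and 2 of the next 15, at ranks 19 and 23. The 25 strongest sites were spread over the chromosome, with 6 in the left arm, 12 in the centre and 7 in the right arm.

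The counts of III peaks among the 25 strongest of a list were too small to set against its share of the length. Chromosome III had 1 of the 25 strongest combined peaks (4%, 0.101 to 20.4%), 12 of the 100 strongest (12%, 6.36 to 20.0%) and 52 of the 300 strongest (17.3%, 13.2 to 22.1%). Replicate 1 had 0 III peaks among its 25 strongest, which allows a share of up to 13.7% by the exact interval, and 13 among its 100 strongest. Replicate 2 had 1 among its 25 and 13 among its 100. These classes are nested, and no difference from the 13.7% of the length that III makes up was tested.

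Ranks of the shared III sites were only loosely related between the replicates. Over the 22 peaks found in both, the Spearman correlation of the best ranks in the replicates was 0.26. This describes sites that share their libraries. With 22 sites the value is imprecise, and it was not computed for the shared peaks of other chromosomes. The strongest III peak of replicate 2 shows how far the lists can part. It ran from 931228 to 931825 in the left arm (598 bp) with a q-value of 1.43e-09, at rank 25 of replicate 2. Replicate 1 had a peak of 601 bp there with a q-value of 0.00106 at rank 696, and the combined list one of 605 bp with a q-value of 0.00498, at rank 1761 of 2162 and rank 274 of the 330 on III. It was the weakest III peak of the combined list to be found in both replicates.

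Some other sites stood at like places in both replicates and some did not, where ranks are read against the 23 III peaks of replicate 2 and the 194 of replicate 1. The peak from 10224472 to 10225347 in the right arm (876 bp) was the fourth of III in replicate 2 and at rank 26 of III in replicate 1. The peak from 6971853 to 6972263 in the centre (411 bp) was the sixth in replicate 2 and at rank 54 in replicate 1. Both sites thus stood at a like place in the lists. The peak from 7153831 to 7155046 in the centre (1216 bp) was the eighth in replicate 2, while replicate 1 had only 398 bp of peak there, at rank 155. The peak from 9825204 to 9826324 in the right arm (1121 bp) was at rank 13 in replicate 2 and, with 649 bp, at rank 146 in replicate 1. At these last 2 sites the replicates shared the position but not the width, and the peak of replicate 1 was among the weaker ones of its list.

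**Figure D2:**
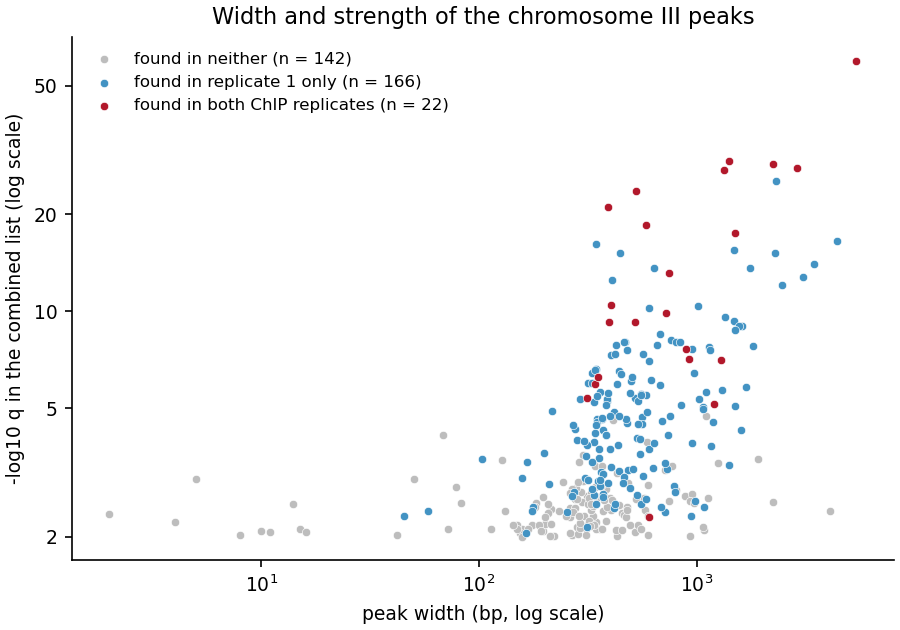
Width (bp, log scale, x axis) and -log10 q in the combined list (log scale, y axis) of the 330 chromosome III peaks, coloured by the replicate lists in which each was found. Peaks in neither replicate (142, grey) sit at the bottom of the plot, up to a -log10 q of 4.74, including 2 peaks at least 2 kb wide.

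Most of the III peaks were narrow, and 17 were under 100 bp, a share of 5.15% against 5.46% of all combined peaks. The median width was 395 bp (middle 50% of peaks, 301 to 614 bp), the narrowest peak had 2 bp and the widest 5419 bp. Medians on the other chromosomes ran from 358.5 bp on IV to 446 bp on X. Wider peaks tended to be stronger: the Spearman correlation of width and -log10 q was 0.53 across the 330 peaks, against 0.59 across the 1832 peaks of the other chromosomes, where peaks share their libraries and are not independent. The plot of width and strength shows sites that leave this trend on both sides. Narrow and strong sites are those at 10758941, 3456216, 12250139, 1618956 and 3867313, all under 600 bp and all among the 15 strongest.

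At least 2 kb wide were 11 III peaks (3.33%, 1.68 to 5.89%), against 3.47% of all combined peaks, and they held 17.9% of the covered length. Of these, 2 were in the left arm, 6 in the centre and 3 in the right arm. Besides those already named (5501266, 5836775, 4193167, 12312973, 5939222 and 8866314), they were 6419883 to 6422958 (3076 bp, -log10 q 12.8) and 8982092 to 8985550 (3459 bp, 14.0) in the centre, and 13462800 to 13465277 (2478 bp, 12.1) in the right arm. These 9 were among the 25 strongest III peaks and all were found in replicate 1, 3 of them also in replicate 2.

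The other two wide peaks were broad and weak. The peak from 10751459 to 10755560 in the right arm spanned 4102 bp, the third widest on the chromosome, with a q-value of 0.00394 (rank 256 on III). The peak from 348077 to 350313 in the left arm spanned 2237 bp with a q-value of 0.00273 (rank 225). Neither was found in either replicate. The first lay 3380 bp to the left of the narrow strong site at 10758941. Reads from the hpl-2 and unc-119 copies of the transgene can map to these genes on III, and whether this peak or any other lies at either gene was not tested.

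**Figure D3:**
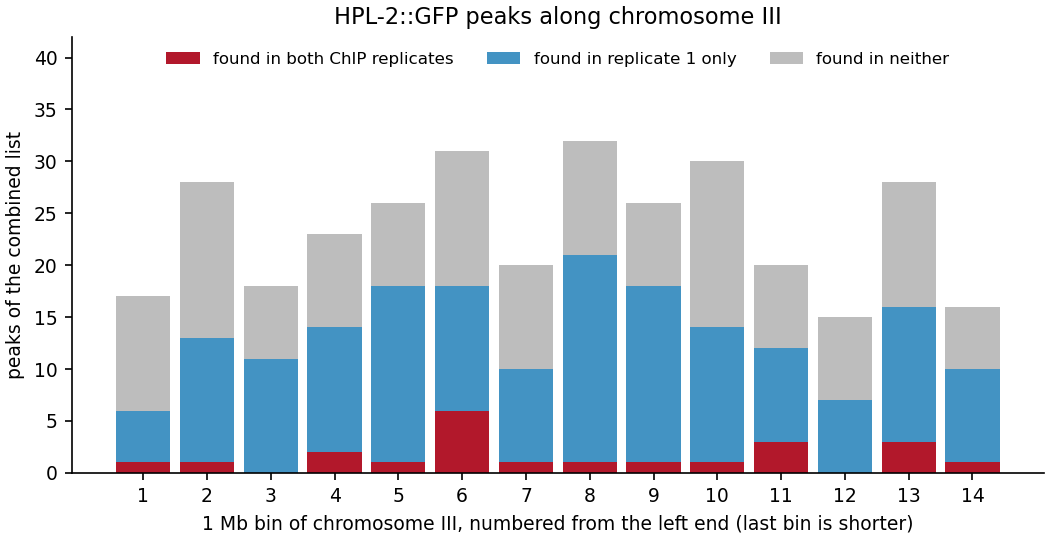
Number of combined-list peaks (y axis) in each 1 Mb bin of chromosome III, numbered from the left end (x axis), with colours for the replicate lists in which the peaks were found. Counts ran from 15 to 32 in the full bins, and bin 6 held 6 of the 22 peaks found in both replicates.

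Along the chromosome the peaks were spread from end to end, the first starting at base 2899. Divided into 3 equal segments, III had 105 peaks in the left arm (31.8%, 26.8 to 37.1%), 117 in the centre (35.5%, 30.3 to 40.9%) and 108 in the right arm (32.7%, 27.7 to 38.1%). The arms together held 213 (64.5%, 59.1 to 69.7%), where an even spread would give 66.7%. The other autosomes had 61.7% of their peaks in the arms (59.1 to 64.1%). With these 3 equal segments, no excess in the arms was therefore detectable on III by number of peaks. With narrower arms, given under the alternative settings, the share was 43.0%, which is below the share of the length that those arms make up. Whether the arms read as even or as sparser thus depended on where they were cut. By covered length the centre had more, 78.9 kb or 1.72% of its bases, against 1.13% in the left arm and 1.40% in the right arm. Peaks at least 2 kb wide made up 20.9 kb of this in the centre, 5.13 kb in the left arm and 8.89 kb in the right arm. The other peaks covered 58.0 kb, 46.7 kb and 55.2 kb in the same order.

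Median width and median strength differed little between the segments, and the shares by support had intervals that overlap. The centre held 12 of the 25 strongest III peaks and 6 of the 11 at least 2 kb wide. These counts are small and not separate, since 9 of the wide peaks are among the 25 strongest. They were not tested or set against the centres of other chromosomes. Median widths were 369 bp in the left arm, 410 bp in the centre and 416.5 bp in the right arm, and median -log10 q values were 3.02, 3.26 and 3.13. Peaks in both replicates made up 4.76% of the left arm (1.56 to 10.8%), 7.69% of the centre (3.58 to 14.1%) and 7.41% of the right arm (3.25 to 14.1%). Peaks in neither made up 45.7% (36.0 to 55.7%), 37.6% (28.8 to 47.0%) and 46.3% (36.6 to 56.2%), with intervals that overlap. Replicate 1 had 58, 77 and 59 peaks in the left arm, centre and right arm, and replicate 2 had 5, 10 and 8.

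In 1 Mb bins the count ran from 15 peaks between 11 and 12 Mb to 32 between 7 and 8 Mb. Other full bins with many peaks were those from 5 to 6 Mb (31) and from 9 to 10 Mb (30), and those with few were from 0 to 1 Mb (17) and from 2 to 3 Mb (18). Replicate 1 had its fewest peaks, 6, between 0 and 1 Mb and 7 between 11 and 12 Mb, and its most, 22, between 5 and 6 Mb. The bin from 5 to 6 Mb was singled out after its values were seen. Its traits are not separate, since the strongest region enters each of them. The bin held the strongest region of III, 5 of the 25 strongest III sites, 3 of the 11 wide peaks and 28.5 kb of covered length. It also held 7 of the 23 replicate 2 peaks (30.4%, 13.2 to 52.9%), 2 of which lie in the strongest region. The interval does not allow for the choice of the bin. The bins from 2 to 3 Mb and from 11 to 12 Mb had no replicate 2 peak, and their strongest combined peaks had -log10 q values of 9.01 and 5.35.

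Close neighbours were common. The next peak to the right had its midpoint within 5 kb for 86 of the 330 peaks (26.1%, 21.4 to 31.2%), against 28.4% of all combined peaks. The other autosomes had 29.6% (27.3 to 32.0%). Linked in this way, 143 peaks fell into 57 runs of 2 or more, of which 42 were pairs and 15 had 3 to 6 peaks, while 187 peaks stood alone. The longest run had 6 peaks over 10.4 kb, from 12335086 to 12345524 in the right arm. None of its peaks was found in replicate 2 and 3 were found in replicate 1.

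The densest of the 138 windows of 100 kb was the one around that run, from 12.3 to 12.4 Mb in the right arm, with 13 peaks. They lay within 58.5 kb and covered 8.74 kb, from 103 to 2308 bp wide. The sixth strongest site of III at 12312973 was at the left side of this stretch, and the other 12 peaks had -log10 q values of at most 7.39. Replicate 1 had 7 peaks in the window and replicate 2 had 0. The most crowded window on every other chromosome held between 12 and 14 peaks, so a window of this density was not confined to III.

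The next densest windows included some with a strong site and some without. From 5.9 to 6 Mb there were 9 peaks within 37.2 kb, around the strong sites at 5916623 and 5939222. Of the 9, 4 were found in replicate 1 and 2 in replicate 2, those at 5916623 and 5943501. In the left arm, the window from 1.2 to 1.3 Mb had 8 peaks, including the second strongest site at 1214583 and 5 peaks found in neither replicate. The window from 8.7 to 8.8 Mb in the centre also had 8, without a strong site, as its best -log10 q was 4.64. From 6.4 to 6.5 Mb there were 7, with the broad peak at 6419883 and 5 found in neither replicate. Windows with 7 peaks also lay at 7.3 to 7.4 Mb, where the best -log10 q was 4.87, and at 8.8 to 8.9 Mb, with the third strongest site at 8866314. Of the 138 windows, 22 held no peak and 34 held 1.

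**Figure D4:**
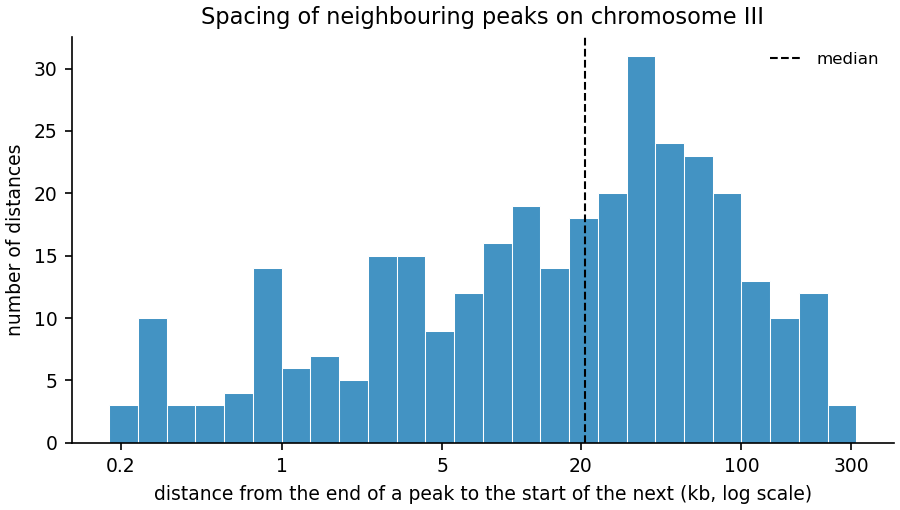
Distances from the end of a peak to the start of the next on chromosome III (kb, log scale, x axis) and their number (y axis), with the median of 20.8 kb as a dashed line. Of 329 distances, 37 were under 1 kb and 38 over 100 kb.

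Between the dense stretches lay long empty ones. The 329 distances from the end of a peak to the start of the next had a median of 20.8 kb (middle 50%, 3.98 to 55.1 kb). They ran from 207 bp to 304.2 kb. The smallest distance between neighbouring peaks in any list was 201 bp. Whether closer sites had been joined when peaks were called was not tested. More than 100 kb long were 38 of them, 12 in the left arm, 13 in the centre and 13 in the right arm. Together they made up 6.22 Mb, or 45.3% of the chromosome. The corresponding shares were 38.5% on IV, 41.8% on II, 56.2% on X, 59.4% on V and 65.0% on I, the reverse of their order in peak density.

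The longest empty stretch ran from 6625552 to 6929704 in the centre (304.2 kb) between weak peaks at ranks 195 and 190 of III. The second, from 12617318 to 12874550 in the right arm (257.2 kb), began at the end of a run of 5 peaks that included the site at 12612269 (rank 19). The third, from 1619298 to 1859501 in the left arm (240.2 kb), began at the narrow strong site at 1618956. The fourth, from 5268867 to 5501266 (232.4 kb), separated the tenth strongest from the strongest site, and the fifth, from 2311180 to 2528632 in the left arm (217.5 kb), began at a peak of 5 bp. Strong sites thus bordered some of these 5 stretches and weak peaks others, and borders of the other stretches were not counted by strength. Neither replicate had a peak within these 5, which follows almost wholly from how they were chosen, since 193 of 194 replicate 1 peaks and 23 of 23 replicate 2 peaks of III overlap a combined peak.

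The III peaks that only the combined list held were weak. The combined list was made from the same samples, so this describes the lists and is not a separate check. The strength of the 922 such peaks over all chromosomes was not compared. The strongest of the 142 in neither replicate ran from 9807161 to 9808268 in the right arm (1108 bp, -log10 q 4.74), at rank 97 of III and 568 of the genome, and it was the only one among the 100 strongest III peaks. The next were 12338172 to 12338584 in the right arm (413 bp, 4.59), inside the densest window, and 13678806 to 13678873 in the right arm (68 bp, 4.12). Then came 5653497 to 5654089 in the centre (593 bp, 3.92) and 4413979 to 4414279 in the left arm (301 bp, 3.59). These 5 were scattered over all 3 segments.

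**Figure D5:**
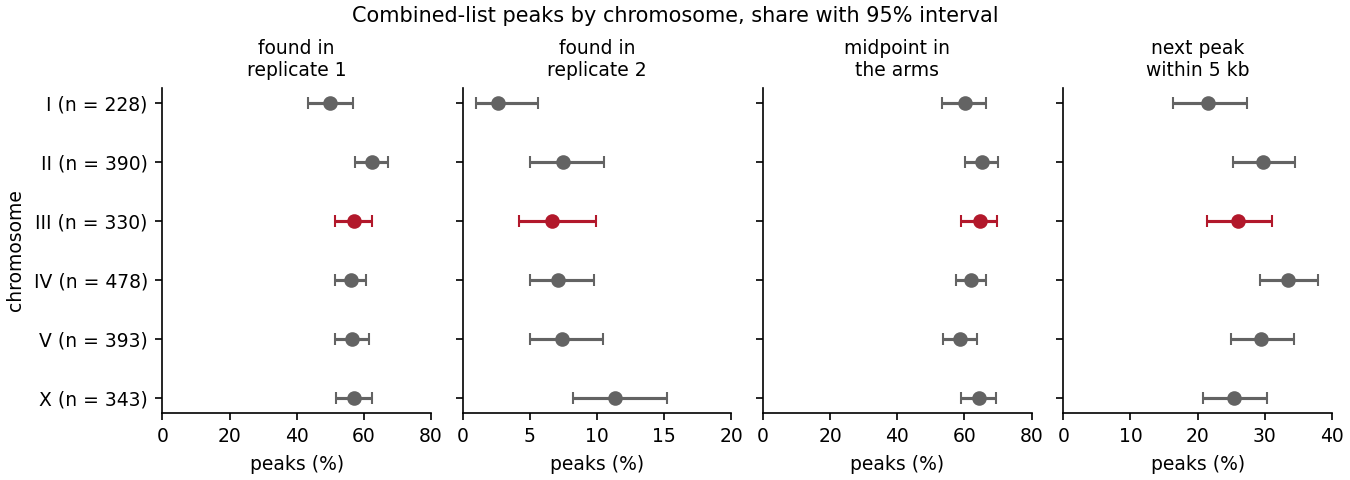
Share of combined-list peaks (%, x axes) found in replicate 1, found in replicate 2, with their midpoint in the arms, and with the next peak within 5 kb, for the 6 chromosomes (y axis), with chromosome III in red. Points are shares and bars exact 95% intervals; chromosome III lay at 57.0%, 6.67%, 64.5% and 26.1% in the 4 panels, between the lowest and the highest of the other chromosomes in each.

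Set beside the other chromosomes, III lay within their range in support, arms and close neighbours, as the plot of shares by chromosome shows. Its support in replicate 1 lay between 50.0% on I and 62.3% on II, and its support in replicate 2 between 2.63% on I and 11.4% on X. The share of its peaks in the arms lay between 58.8% on V and 65.1% on II. Close neighbours were between 21.5% on I and 33.5% on IV. No difference between III and the rest was tested, and the intervals of III overlap those of the other autosomes together in each of these 4 measures.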

How the data were processed

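ChIP-seq peak lists of 2 ChIP samples and of the combined series were analysed. No list of the 2 Input samples was used here. Peaks were called with PeakSeq and placed on WormBase WS220, per the file headers, and the deposited q-value (an adjusted p-value) of each peak was used as given. Not given in the sources used here are the aligner, the caller's settings, how the combined list was made and the build before conversion. A comment in the combined list says that conversion between builds changed 1 III peak, that at 834970 to 836160. Read depth is unknown.

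Positions, widths, ranks, overlaps (1 bp or more), segments (3 equal parts, up to the furthest peak end in any list), 100 kb windows and distances were computed in Python 3.11.15 with pandas 2.3.3 and scipy 1.17.1, and the functions were tested on simulated data. Shares have exact 95% intervals. Peaks are not replicates, so no test was run over them. Whether separate cultures gave the ChIP samples is not in the labels. Named peaks are the 15 strongest on III, those at least 2 kb wide, the 5 strongest in neither replicate, the 5 longest empty stretches and the 5 densest windows. Others were named after their values were seen, namely sites of replicate 2 peaks. Members, lists and rules were chosen with earlier results of these data known. No genome of this build was used, so no sequence is shown.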

Additional observations from a re-analysis of the deposited data

How the results depend on the processing

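Of 45 values under alternative settings, 39 planned and 6 added after seeing the data, 22 stayed within the 95% interval of the main value or, for numbers and lengths, within 1.5 times it. Where no reason is given, the cause was not tested. Leaving out 1 replicate means using the list of the other alone, which is shorter, so replicate and list length cannot be told apart in the following. The share of III peaks in the arms was 56.5% to 60.3%, the most peaks in a 100 kb window 2 to 7, the longest empty stretch 511.8 to 2241 kb, the share with the next peak within 5 kb 4.35% to 17.0%, the median width 439.5 to 456 bp, the share of all peaks on III 13.0% to 15.1% and the number of peaks at least 2 kb wide 0 to 8. In the stronger part of the III list, split at its median q-value, 12.7% were in both replicates, the longest empty stretch was 548.9 kb and the median width 524 bp. Among peaks in both replicates 59.1% were in arms. With arms as the outer 25% at each end, 43.0% of all III peaks were in arms, against the 50% of the length that these make up. For this count, 142 of 330, the exact 95% interval is 37.6 to 48.6%, which lies below 50%. By this count, peaks were fewer in these outer parts than an even spread would give. The interval takes each peak as independent, although many peaks lie in runs. This share was not computed for the other chromosomes, so it cannot be called particular to III. With midpoints within 200 bp as the rule, 65.2% of replicate 2 peaks were found in replicate 1 and 6 of the 25 strongest III peaks were in both. Of the 25 widest, 5 were in both, against 11 of the 25 strongest. The next peak was within 2 kb for 11.2% and within 10 kb for 36.1%, by construction. With peaks under 1 kb apart joined, 15.7% had the next within 5 kb and 25 regions were at least 2 kb wide in place of 11. Both changes follow in direction from the joining, and whether joined peaks are 1 region or separate sites was not tested. No paired analysis was possible because the values come from peak positions in ChIP lists, with no fit across samples and no Input list used.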

Other observations

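Very short peaks on III were mostly without replicate support. Of the 17 III peaks under 100 bp, 15 were found in neither replicate and 2 in replicate 1. Their -log10 q was at most 4.12. The shortest had 2 bp, from 3663574 to 3663575, with a -log10 q of 2.35. One of the 17, of 5 bp at 2311176, borders the fifth longest empty stretch. Support was not counted for the 118 combined peaks under 100 bp on all chromosomes. Low support of such peaks is therefore not shown to be particular to III. Replicate 1 had 1 III peak that the combined list lacks, from 1201133 to 1201143, of 11 bp and with a q-value of 0.00969, among 29 such peaks on all chromosomes. These peaks were chosen for mention after their values were seen.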
